A study of Mus musculus with 8 samples.

Results

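The Fezf2 locus is described here as the set of PRDM16 ChIP-seq peaks whose summit lies in Fezf2 or within 100 kb of its nearer end. Fezf2 occupies chr14:12338992-12346803 of the mm10 build, a span of 7812 bp in RefSeq, and the window runs over 208 kb. It holds 28 of the 48227 peaks in all 4 ChIP libraries. The locus was chosen by its measured fold enrichment in wild-type cortex and by its lack of peaks in the knockout, so these values are given as a description and none of them is tested. ChIP-seq was carried out on lysates of whole embryonic mouse cortex at E15.5, after crosslinking with paraformaldehyde and EGS and sonication, with 2 libraries per genotype. The conditional knockout (cKO) is labelled Emx1Ires-Cre; Prdm16flox/flox, and the wild-type group (WT) carries Prdm16 flox/flox alleles without Cre, so both genotypes share the floxed alleles. Emx1-driven Cre acts in the dorsal telencephalic lineage, and cells of other origin in the lysate keep Prdm16. The labels do not say whether replicates came from separate embryos or how many embryos were pooled, so an SD over libraries may be technical.

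Fezf2 encodes a zinc-finger transcription repressor that directs cortical neurons of the deep layers to a subcerebral fate, including the corticospinal neurons of layer V. In mouse it is made by early radial glia, the progenitors that line the ventricle, and by deep-layer neurons, and a conserved enhancer downstream of the gene, known as E4, is bound by SOX4 and SOX11. PRDM16 is a zinc-finger protein of the PR-domain family that radial glia express and that acts on enhancers. Whether a region below is E4 was not tested, as the sources used here give no coordinates for it.

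The annotated start of Fezf2, on the minus strand, lies inside a peak of each WT list, so the promoter sequence under these peaks is shown first. Its 250 bases before the start span chr14:12345866-12346115 and are read 5′ to 3′ on the minus strand from RefSeq (GRCm38.p6, the mm10 assembly). Capitals mark each CG pair.
Fezf2 promoter: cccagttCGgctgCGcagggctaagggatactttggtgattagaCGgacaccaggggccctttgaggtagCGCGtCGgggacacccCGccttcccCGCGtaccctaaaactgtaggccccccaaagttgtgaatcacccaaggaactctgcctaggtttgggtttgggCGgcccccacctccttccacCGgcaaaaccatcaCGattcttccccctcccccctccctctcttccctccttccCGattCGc

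These bases hold 14 CG pairs and are 61.2% G or C. Over the same 250 bases of all 32851 RefSeq promoter windows, the median was 6 CG pairs and 52.4%, and 29.4% of windows held at least as many CG pairs. Of 5 motifs searched on both strands in the 300-base window that also takes in the first 50 bases of the transcript, no letters matched. The share of all windows that hold each was 72.3% for the E-box CANNTG, 46.7% for the NFI letters TTGGC, 18.7% for the SOX letters ACAAAG, 13.6% for the TATA box TATAAA and 5.29% for the homeobox letters TAATTA.

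The libraries differed in length of list and in background, which is given here in fragments at a peak's summit. The lists held 4590 and 3107 peaks in cKO replicates 1 and 2 and 13864 and 26666 in WT replicates 1 and 2. Median backgrounds were 3.72 and 3.29 in the cKO replicates and 0.985 and 2.32 in the WT replicates, so the cKO lists were shorter and lay at higher backgrounds. The part of this difference in the results below was not tested. Peak lists hold no read totals and no expression, so sequencing depth, cortical identity and the loss of Prdm16 were not checked.

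PRDM16 peaks at Fezf2 were called in the WT libraries alone. The window held 0 and 0 peaks in cKO replicates 1 and 2, and 14 and 14 peaks in WT replicates 1 and 2. The WT peaks fell into a group at the gene itself and a group in the body of the upstream gene Cadps, apart from 1 peak of replicate 2 that lay 46.1 kb downstream. The longest gap between summits in each WT list, 40.9 kb, separated these groups. The genotypes did not overlap in number of peaks, and both WT counts were above both cKO counts for 30.8% of the 21887 protein-coding genes. Under the same rule, 55.7% of these genes had a peak in at least 1 cKO list. WT and cKO peaks carry different library identifiers in their names, so genotype and whatever those identifiers mark cannot be told apart. In a lysate of whole cortex, fewer cells with a bound site and less binding per cell cannot be told apart either.

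**Figure D1:**
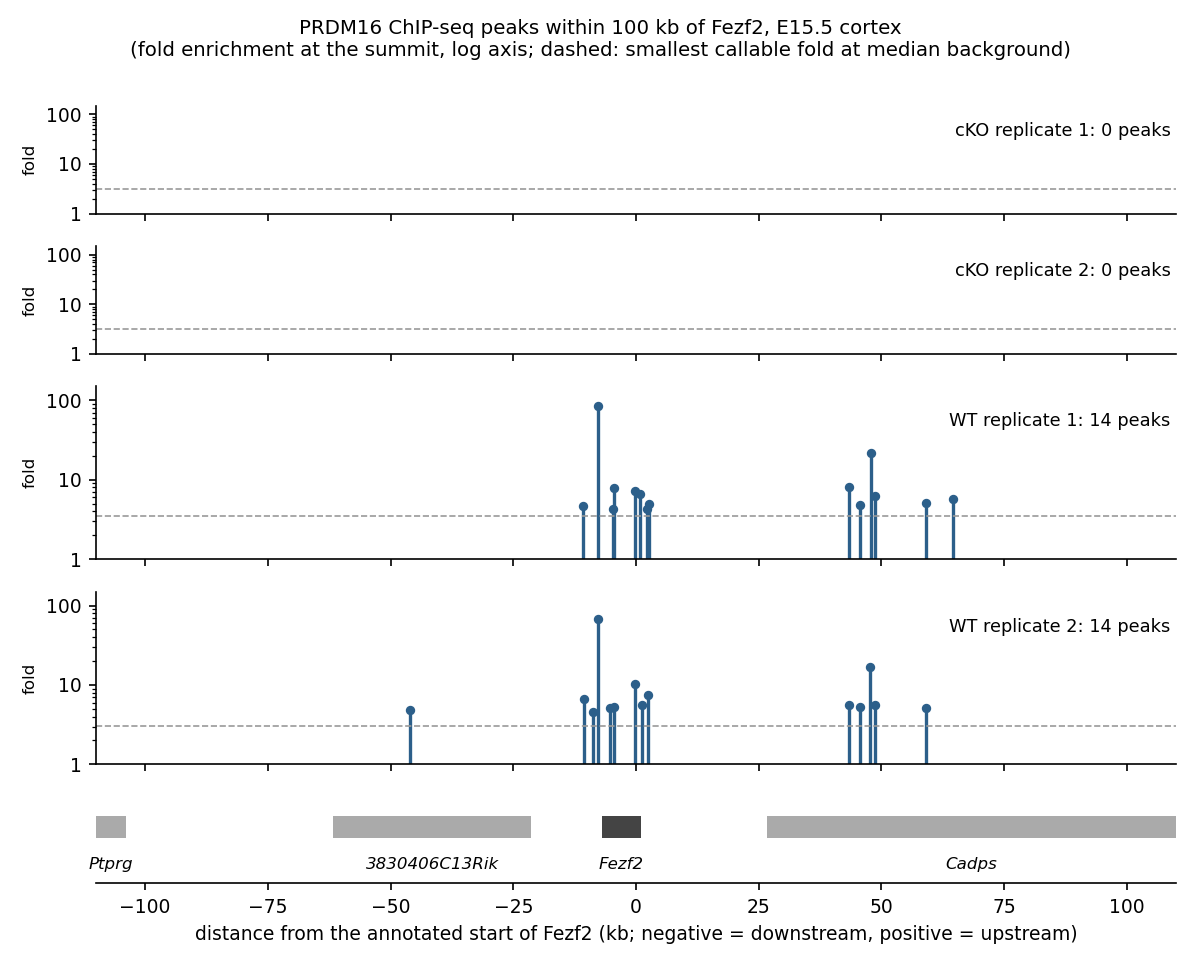
Each stem is a peak summit, placed by its distance in kb from the Fezf2 start, and its height is the fold enrichment on a log axis, for cKO replicates 1 and 2 and then WT replicates 1 and 2. Dashed lines show the smallest fold each library could call at its median background, and bars show protein-coding genes; both cKO panels are empty and both WT panels hold 14 peaks, all but 1 of them, in WT replicate 2, at the gene or in Cadps.

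Overlapping peaks of both WT lists were joined into regions, which gave 10 regions at Fezf2. All 10 were WT-only, meaning that no cKO peak overlapped them by even 1 bp; over the genome this held for 91.5% of the 10090 regions of both WT lists. Only 1 peak of WT replicate 1 and 3 peaks of WT replicate 2 at the locus were outside such regions. Fold enrichment below is the authors' value, the pileup of fragments at the summit over the local background, and means ± SD are over the 2 WT libraries. Where a library has more than 1 peak in a region, the fold of the region is that of its strongest peak there.

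The strongest region lay just beyond the 3′ end of the gene. It spans chr14:12337183-12338970, between annotated genes, and its summit is 7.74 kb downstream of the Fezf2 start. The cKO lists had no peak there, and the fold was 84.7 in WT replicate 1 and 67.2 in WT replicate 2 (75.9 ± 12.3, n = 2). Summits of the 2 WT libraries were 34 bp apart, and lay 863 and 897 bp outside the gene. The peak was of rank 3 by fold among 13864 peaks in WT replicate 1 and of rank 4 among 26666 in WT replicate 2, and the region was of rank 2 among the 10090 regions of both WT lists. Its −log10 q was 297 in WT replicate 1 and 428 in WT replicate 2. The fold and p-value of a peak together fix the whole number of fragments at its summit and the local background. These were 167 fragments over a background of 0.985 in WT replicate 1, and 285 over 3.25 in WT replicate 2. The higher fold in replicate 1 thus stood beside fewer fragments and a lower background. The region was also broad, at 1788 bp against a median of 541 bp over all regions of both WT lists. This was not particular to it, as the weaker region at the promoter spanned 1791 bp.

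The region at the promoter had the higher mean fold of the 2 regions with a summit in the gene, though their values overlapped between the WT libraries. It spans chr14:12345360-12347150 and joins a pair of neighbouring peaks from each list, since their edges overlap across lists. The cKO lists had no peak there, and its fold was 7.18 in WT replicate 1 and 10.3 in WT replicate 2 (8.73 ± 2.201, n = 2). In both WT libraries the main peak covered the whole promoter window, and the summit stood 271 bp downstream of the start in replicate 1 and 166 bp downstream in replicate 2. The upstream peak of the pair had folds of 6.56 in WT replicate 1 and 5.57 in WT replicate 2, with summits 876 and 1185 bp upstream of the start. The RefSeq span of the gene reaches beyond this start, so the first of these summits still falls inside the span and the other outside it. Enrichment at the promoter was thus called on both sides of the start in both WT libraries, at a level well under that of the downstream region.

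A second region in the gene body, chr14:12340971-12341545, had its summit 4.43 kb downstream of the start. Fold enrichment there was 7.97 in WT replicate 1 and 5.28 in WT replicate 2 (6.62 ± 1.90, n = 2), with 14 and 19 fragments at the summit. The gene table used here gives no exons, so exon and intron positions were not separated. Weaker regions flanked the gene on both sides. The upstream one, chr14:12347884-12348718, lay 2.52 kb before the start with folds of 5.01 and 7.43 in WT replicates 1 and 2. Beyond the strongest region, chr14:12335056-12335296 had folds of 4.64 and 6.64. Within Fezf2 and 5 kb of it, each WT list held 8 peaks.

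**Figure D2:**
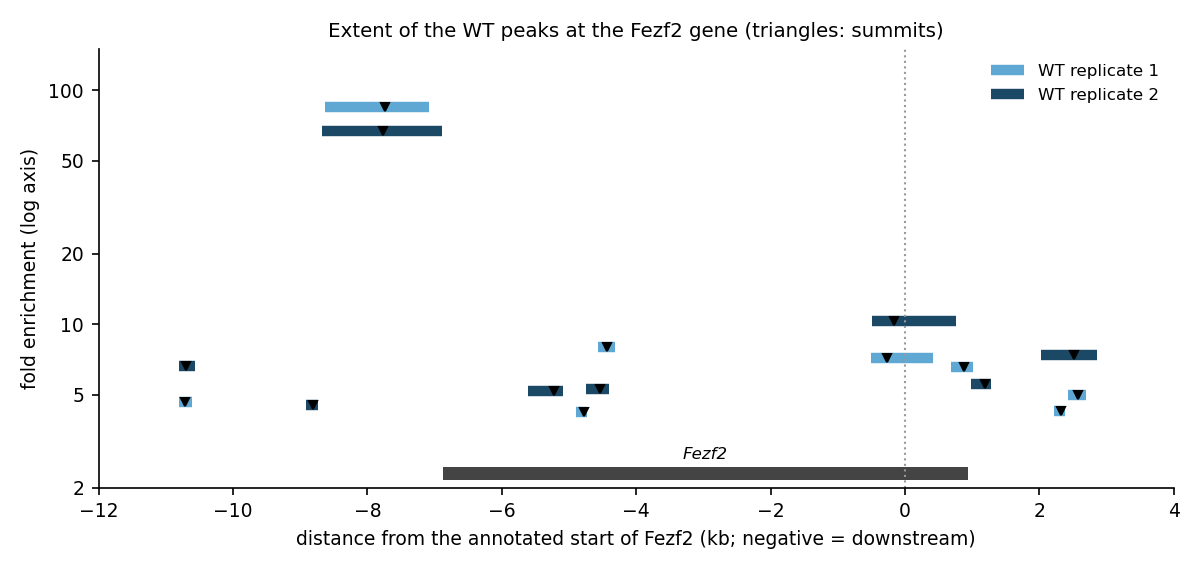
Horizontal bars show the extent of each WT peak around Fezf2 at the height of its fold enrichment (log axis), with triangles at summits; the dark bar is the gene and the dotted line its annotated start. The region near 7.74 kb downstream stands at 84.7 and 67.2 in WT replicates 1 and 2, and the other peaks shown stand at or below 10.3.

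The Cadps group lay 43.4 to 64.6 kb upstream of the Fezf2 start. Cadps encodes a protein that primes dense-core vesicles for release, is transcribed from the same strand, and its end that faces Fezf2 lies 25.8 kb from the gene. The summits fell 16.7 to 37.9 kb inside Cadps from that end, with 6 peaks in WT replicate 1 and 5 in WT replicate 2. The main region of the group, chr14:12392820-12394010, had folds of 21.9 in WT replicate 1 and 16.9 in WT replicate 2 (19.4 ± 3.53, n = 2) and was of rank 492 among regions of both WT lists. It was the second strongest at the locus, and the strongest region exceeded it 3.92-fold in mean fold. Its summits held 45 and 63 fragments and lay 79 bp apart.

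Each of the other 4 regions in Cadps was under 10-fold. The one nearest to Fezf2, chr14:12389052-12389511, had folds of 8.17 and 5.64 in WT replicates 1 and 2. Those at chr14:12391324-12391594 (5.05 ± 0.345), chr14:12394371-12394847 (5.85 ± 0.438) and chr14:12404765-12405368 (5.12 ± 0.0738, n = 2 each) differed little between the libraries. A peak of WT replicate 1 at chr14:12410295-12410485 with a fold of 5.75 had no counterpart in replicate 2.

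The peaks found in 1 WT list alone lay below the median fold of their library at the locus, as did several peaks of shared regions. In WT replicate 2 they were chr14:12340257-12340774 in the gene body at 5.17, chr14:12336947-12337129 beside the strongest region at 4.52, and chr14:12299691-12299885 in 3830406C13Rik at 4.90. The last lay farther downstream than any other peak of the window. Peaks of both lists spanned a wide range, with a median of 5.96 in WT replicate 1, where the lowest was 4.24, and 5.55 in WT replicate 2, where the lowest was 4.52.

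Only the 2 strongest regions stood apart in order of fold. Ranked by mean fold, the strongest and the second strongest each exceeded the next in both WT libraries, while in the other 7 of 9 neighbouring pairs the values of the libraries overlapped. The median of the 10 regions, 6.42, lay below the median of 7.46 over all regions of both WT lists. WT replicate 1 had the higher fold at 5 of the 10 regions, against 40.3% of all regions of both WT lists. Summits of the libraries lay a median of 63 bp apart, against 56 bp over all regions.

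**Figure D3:**
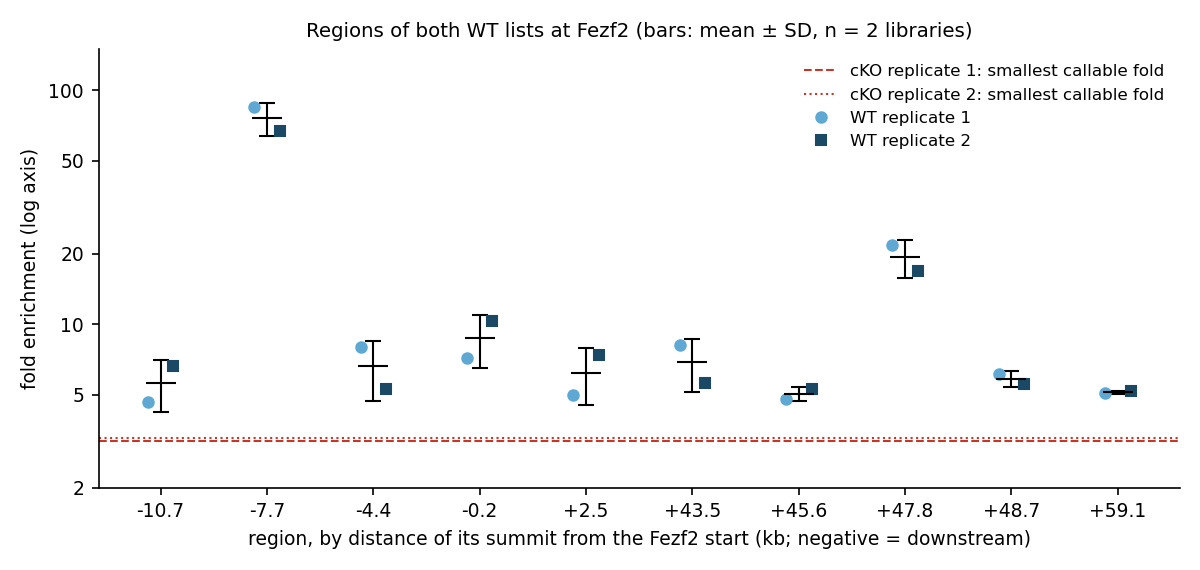
Fold enrichment (log axis) of the 10 regions in WT replicate 1 (circles) and WT replicate 2 (squares), ordered by distance from the Fezf2 start, with the mean ± SD of both; red lines give the smallest fold each cKO library could call. The regions at 7.74 kb downstream and 47.8 kb upstream stand above the rest, and all values lie above the red lines.

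How far the WT values lay from what the cKO libraries could have called was read from those libraries' own peaks. At its median background, cKO replicate 1 needed 14 fragments at a summit and a fold of 3.18 for a call, and cKO replicate 2 needed 13 fragments and 3.26; the same limits were 6 fragments and 3.53 in WT replicate 1 and 9 fragments and 3.01 in WT replicate 2. All 10 regions had both WT folds above both cKO limits, as did 99.2% of WT-only regions. With the lower WT fold divided by 2, 3 of the 10 stayed above, namely the strongest region, the promoter region and the main region in Cadps, against 47.1% over the genome. At the lower WT fold of the strongest region, cKO replicates 1 and 2 would show 316 and 287 fragments at their median backgrounds. For chr14:12335056-12335296, the region with the lowest of these WT folds in a single library, the same numbers were 20.9 and 18.9. At the other 7 regions, the lower WT fold divided by 2 was under both cKO limits. A remaining enrichment of that size was thus not detectable in either cKO library at its median background.

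The cKO lists were empty far beyond the window. The nearest peak to Fezf2 was 782 kb away in cKO replicate 1, at chr14:11556443-11556661 in Ptprg with a fold of 4.24, and a WT list held a peak at the same place. In cKO replicate 2 it was 1752 kb away, at chr14:14098633-14098884 in Atxn7 with a fold of 9.84. A gene's median distance to its nearest peak was 106 kb in cKO replicate 1 and 170.0 kb in cKO replicate 2, and 14.1% and 8.19% of protein-coding genes were at least as far from one as Fezf2. In steps of 100 kb from Fezf2 out to 500 kb, WT replicate 1 held 14, 5, 2, 1 and 2 peaks and WT replicate 2 held 14, 8, 6, 3 and 4. The count thus was highest in the innermost step in both WT libraries. The nearest WT peaks outside the window were 120 kb away with a fold of 9.81 in replicate 1 and 113 kb away with 4.89 in replicate 2, and the farthest inside were 63.6 and 58.1 kb away with 5.75 and 5.17.

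Few annotated genes neighbour Fezf2. Within 500 kb RefSeq places the protein-coding genes 3830406C13Rik, 14.5 kb away, Cadps, 25.8 kb away, and Ptprg, 97.0 kb away, as well as the snoRNA gene Gm24578, 5.09 kb away, and the pseudogenes Gm17805 and Gm18077 inside Cadps. The body of 3830406C13Rik held 0 and 0 peaks in the cKO replicates and 0 and 1 in the WT replicates. The body of Cadps, which is far longer, held 0 and 0 peaks in the cKO replicates and 9 and 14 in the WT replicates. Its WT-only regions numbered 8, of which 5 are those of the Fezf2 window. Ptprg, a receptor tyrosine phosphatase gene, held 2 and 0 peaks in the cKO replicates and 7 and 15 in the WT replicates, and 6 WT-only regions. Gm24578 and the pseudogenes held none in any library.

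Set beside other genes under the same window rule, Fezf2 had both a strong region and many regions. At least 1 WT-only region lay within 100 kb of 39.7% of the 21887 protein-coding genes, and the median gene had 0. The strongest WT-only region of Fezf2 was of rank 1 among genes, a place held together with Ptprg, 3830406C13Rik and Cadps, whose windows contain the same region; it was of rank 2 without WT replicate 1 and likewise without WT replicate 2. In number of WT-only regions, 50 genes had more than the 10 of Fezf2 and 30, Fezf2 included, had as many, which puts 0.366% of genes at 10 or more. Of the 9695 genes with no cKO peak in their window, 15 had 10 or more WT-only regions. Fezf2 was of rank 11 among them, a place it shared with all the others that had 10, the lowest count of the 15.

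**Figure D4:**
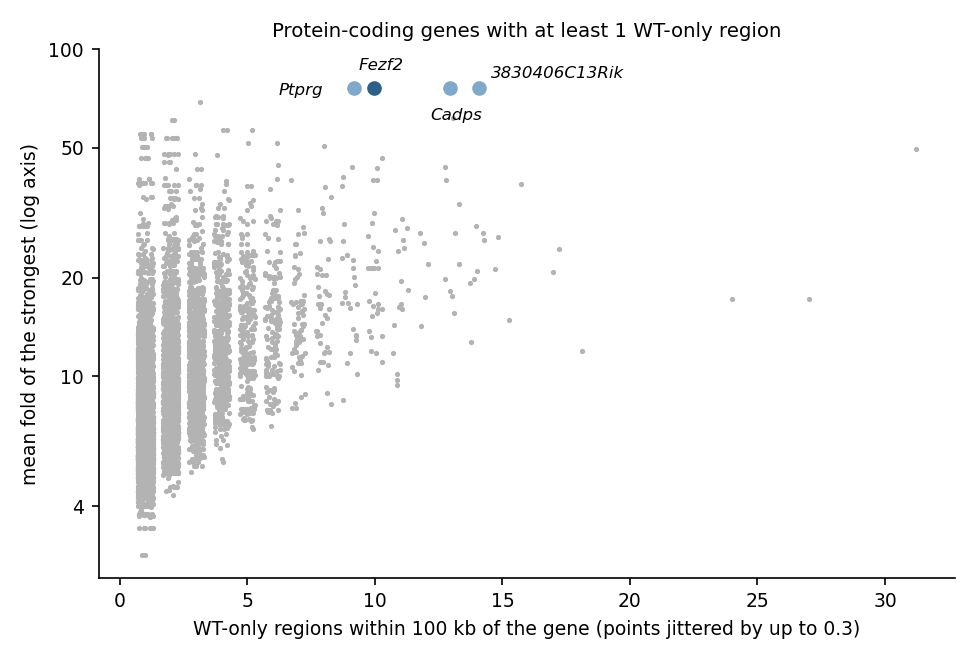
Each point is a protein-coding gene with at least 1 WT-only region within 100 kb, by the number of such regions (x axis, jittered) and the mean WT fold of the strongest (y axis, log scale). Fezf2 stands at 10 regions and 75.9, at the same height as Ptprg, Cadps and 3830406C13Rik, whose windows share that region.

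The genes elsewhere most like Fezf2 were found by the summed difference in number of peaks over the 4 libraries. Cct3, a chaperonin subunit gene on chromosome 3, had 0 and 0 peaks in the cKO replicates and 14 and 15 in the WT replicates. Siah3, of the Siah ubiquitin ligase family and also on chromosome 14, had the same numbers. Each differed from Fezf2 by 1 peak. At a difference of 3 peaks came Meis1, a homeobox gene, with 0 and 0 peaks in the cKO replicates and 15 and 12 in the WT replicates, and Gm37116 and Tsacc, which adjoin Cct3 and share its strongest peaks. Gm37116 and Tsacc each had 1 and 0 peaks in the cKO replicates and 14 and 16 in the WT replicates. Their strongest peaks were lower than that of Fezf2, averaging 21.4 over the WT replicates at Cct3, Gm37116 and Tsacc, 19.97 at Meis1 and 17.8 at Siah3.

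Genes that act with Fezf2 in deep-layer fate were looked at as a list of 25, taken from textbook knowledge. The list was chosen with earlier results of these data known, so its shares are a description. Of these, 22 (88.0%) had a WT-only region within 100 kb, against 39.7% of all protein-coding genes, with a median of 3 such regions. A cKO peak was present near 21 of the 25, against 55.7% of all genes. The other 4, Fezf1, Etv1, Zfpm2 and Bhlhe22, had none in either cKO list, as Fezf2 had none. A region of both WT lists that a cKO list also held lay near 10 of the 25, against 11.5% of all genes. Genes differ in length and so in the size of their windows, which was not matched.

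The paralogue Fezf1 had 2 WT-only regions, the stronger at 14.1 ± 2.43 and 30.2 kb outside the gene. All 8 regulators had at least 1. Sox5, which restrains Fezf2 in deep-layer neurons in mouse, had 15, the strongest at 21.2 ± 5.50 in its body, and also 2 regions that a cKO list held, the stronger with a mean WT fold of 24.2. Pax6, a radial glia regulator, had 7, with the strongest at 23.5 ± 1.94 and 22.6 kb outside the gene. It also had 2 regions that a cKO list held, the stronger with a mean WT fold of 9.40. The patterning genes Nr2f1, Emx2 and Lhx2 had 4, 3 and 3. Nr2f1 also had 1 region that a cKO list held, with a mean WT fold of 6.89. Sox4 and Sox11, whose products bind the Fezf2 enhancer E4, had 2 and 1, with the strongest at 7.85 ± 3.41 and 6.99 ± 1.13. Sox4 also had 2 regions that a cKO list held, the stronger with a mean WT fold of 7.05. Sox11 had 1 region that a cKO list held, with a mean WT fold of 9.999. Tbr1, which represses Fezf2 in layer VI neurons, had 1 at 4.71 ± 1.35. All 8 regulators also had a cKO peak in their window, and 5 of them did in both cKO lists, against 32.6% of all genes.

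Among targets and antagonists, Ephb1, an ephrin receptor gene, had 11 WT-only regions with the strongest at 17.3 and 39.5 in WT replicates 1 and 2, 59.4 kb outside the gene. Bcl11b, the subcerebral fate gene downstream of Fezf2, had 4, and the vesicular glutamate transporter gene Slc17a7 had 1. Gad1, which encodes a GABA-synthesizing enzyme, had 0, and 1 region of both WT lists with a mean fold of 6.52 that a cKO list held. Of the Groucho-type co-repressor genes, Tle3 had 12, Tle4 had 6, Tle1 had 2 and Tle2 had 0. Tle3 and Tle4 each also had 1 region that a cKO list held, with mean WT folds of 9.53 and 5.40. Tle2 had 4 and 5 peaks in the cKO replicates against 0 and 1 in the WT replicates. The share of all genes with more cKO than WT peaks was not counted. Of the layer markers, Nfib had 14, Foxp2 8, Ldb2 5 and Bhlhe22 4, while Crym, Etv1 and Zfpm2 had 1 each. Foxp2 also had 1 region that a cKO list held, with a mean WT fold of 8.86. Pcp4 had 0, and 1 region of both WT lists with a mean fold of 5.60 that a cKO list held. The highest strongest region in the whole list was that of Ephb1 at 28.4 ± 15.7, below the 75.9 ± 12.3 of Fezf2, and 4 of the 25 genes had more WT-only regions than Fezf2.

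**Figure D5:**
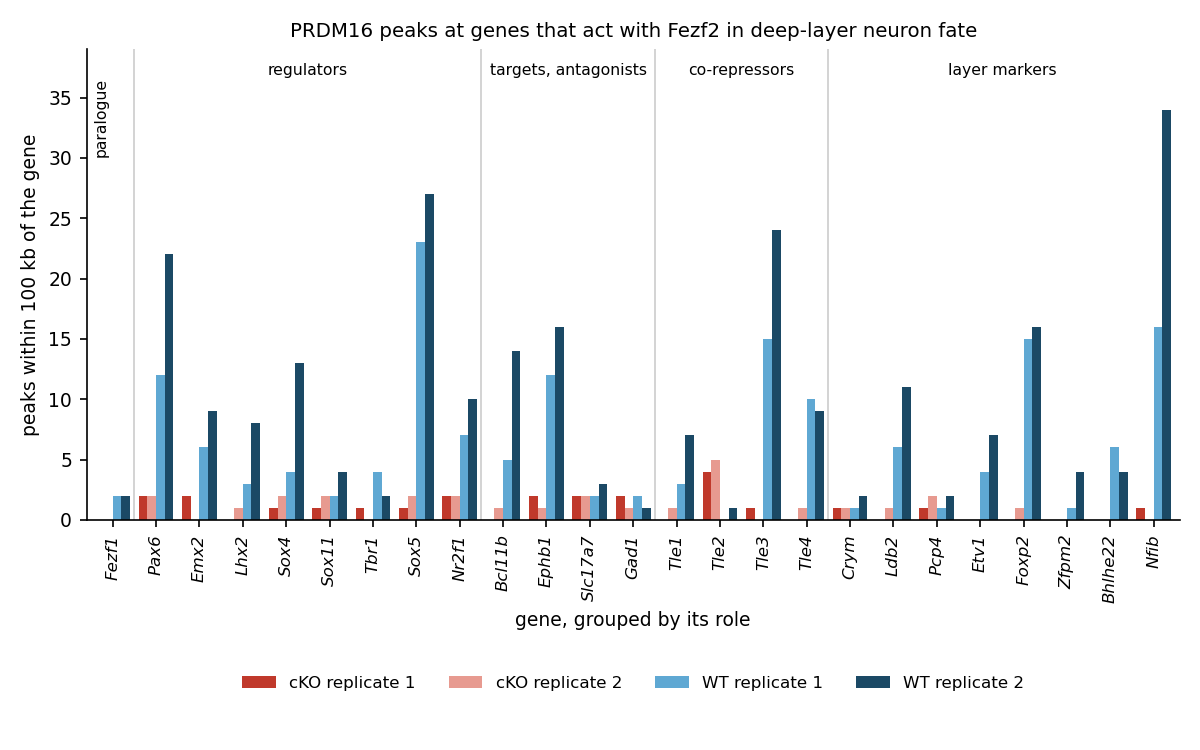
Number of peaks within 100 kb of each of the 25 genes in cKO replicates 1 and 2 and WT replicates 1 and 2, grouped by role. Sox5, Ephb1, Tle3 and Nfib, the genes with more WT-only regions than Fezf2, have 12 to 34 WT peaks per library. Tle2 has 4 and 5 peaks in the cKO replicates against 0 and 1 in the WT replicates, a pattern whose share over all genes was not counted.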

How the data were processed

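The 4 ChIP libraries (2 cKO, 2 WT) were used; the 4 input libraries were not analysed here. Per the submitters' processing notes, reads were handled with FastQC, cutadapt, Bowtie2 2.2.8 and MACS2 2.1.1 on mm10; settings and controls are not given in the sources used here. The authors deposited 1 peak list per library, so replicates were not pooled. The files have no header and follow the narrowPeak layout. The deposited fold enrichment is a ratio of summit pileup to local background, the deposited p-value and q-value are −log10 values, and the deposited score is a whole-number form of −log10 q. The largest q-value kept was 0.0465 and 0.0454 in cKO replicates 1 and 2 and 0.0491 and 0.0440 in WT replicates 1 and 2.

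Summits were placed at the peak start plus the summit offset, and coordinates count from 1. Genes and promoters came from RefSeq (GRCm38.p6); the Fezf2 start and strand came from its promoter entry. For regions, overlapping peaks within a list were merged on the assembled chromosomes, and lists were joined where they shared at least 1 bp; member counts use unmerged peaks. Pileup and background were solved from the fold (each raised by 1) and a Poisson p-value, accepting whole numbers within 0.0001 or 1e-06 of the −log10 p, whichever was larger; this solved 99.97% to 100.0% of peaks per library. The solver and overlap steps were tested on simulated data. Python 3.11.15 with scipy 1.17.1 was used.

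Members, gene lists and rules were chosen with earlier results of these data known. Named genes are Fezf2, its neighbours within 500 kb, the 25 listed genes and the 5 nearest to Fezf2 in peak numbers over the 4 libraries, ties by the smallest difference in log2 of the mean strongest WT fold; Atxn7 and the CG count were added after values were seen. Of the gene list, 2 genes are not reported here and enter none of its counts. No test was run, since the choice of the locus fixes its direction.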

Additional observations from a re-analysis of the deposited data

How the results depend on the processing

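The absence of cKO peaks held in a window of 200 kb. A window of 50 kb, −log10 q of at least 5, merging and nearest-gene assignment cannot add peaks, so they could not change it. The stricter q left 8 peaks in WT replicate 1 and 6 shared regions. Joining the WT lists only where peaks overlapped by at least 50% of each other's length gave 7 shared regions. A window of 200 kb gave 22 peaks in WT replicate 2. Counting only summits nearest to Fezf2, an alternative chosen after seeing the data, left 8 and 8 peaks in the WT replicates and 5 shared regions. Leaving out 1 library at a time gave 10 to 14 regions, a strongest fold of 67.2 to 84.7, a rank of 1 to 2 (2 without either WT library) and 22 to 23 of the 25 listed genes. Of 54 values recomputed, 46 stayed within 1.5 times, or within 1 SD for the fold, and 8 moved. The 46 include values that could not move, so their number does not measure stability. These are the cKO counts named above, and the 10 regions and their strongest fold without a cKO library. The strongest fold without a WT library is another, since each of 2 values lies within 1 SD of their mean. No paired analysis was possible because no result comes from a test over samples. A genome sequence was not used here, so bases under the strongest region are not shown. With 2 libraries per genotype, each with its own background, cKO enrichment under 3.18-fold in replicate 1 or 3.26-fold in replicate 2 was not detectable at the median background.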

Other observations

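The neighbour Ptprg carried a WT-only region at an internal promoter. RefSeq lists more than 1 start for Ptprg, and the one nearer to Fezf2 lay in chr14:12189313-12191022, with no cKO peak and folds of 10.5 and 11.99 in WT replicates 1 and 2 (11.2 ± 1.06, n = 2). The strongest region in Ptprg, chr14:11960642-11961324, had folds of 21.4 and 20.5. Cadps had a WT-only region at chr14:12642530-12643661, outside the Fezf2 window, with folds of 10.2 and 10.8. Of the 25 genes listed with Fezf2, 19 have a promoter entry. Of these, 1 had a WT-only region over it: Emx2, a dorsal patterning gene, with folds of 16.3 and 10.6 in WT replicates 1 and 2. Over all promoter windows, 1.77% overlapped a WT-only region. That share is per window and not per gene, and some listed genes have more than 1 window.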
